A study of Homo sapiens with 4 samples.

Results

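Message for the melatonin receptors and for their relative GPR50 was examined in HEK293 cells, a human embryonic kidney line transformed with adenovirus type 5 DNA that serves as a host for cloned receptors of every kind. The gene set was made up of GPR50, MTNR1A and MTNR1B, 3 of the 17217 genes that could be named on the array, and was found through the RefSeq accession at the head of each probe's name. Each gene was represented by 1 accession and by 3 probes. The set was put together because of its levels in these same cells, so those levels are given as a description and carry no test. All 4 arrays belonged to a single group of untreated cells, grown in DMEM with 10% FBS, penicillin and streptomycin and harvested at confluence from separate plates with separate RNA extractions. There was no second condition and no second line, and a single line says nothing of how embryonic kidney tissue would behave.

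Melatonin is the hormone that the pineal gland releases at night. Its receptors MT1 and MT2, encoded by MTNR1A and MTNR1B, are rhodopsin-like (Class A) receptors that couple mainly to inhibitory G proteins and so lower cyclic AMP. GPR50 is the nearest human relative of these receptors, is encoded on the X chromosome and is counted as an orphan because it does not bind melatonin. It has a long intracellular tail, can pair with MT1 and dampen its signalling, and is best known from the pituitary and from the tanycytes that line a brain ventricle in the hypothalamus.

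HEK293 cells contained very high message for GPR50 and none that passed the study's threshold for either melatonin receptor. GPR50 lay 5.06 ± 0.65 log2 units above the baseline (SD, n = 4 arrays). MTNR1A lay below it at -1.65 ± 0.59 and MTNR1B at -2.89 ± 0.68 (SD, n = 4 for each). This baseline follows the rule of the study. Seminal protein genes, thought to be silent in this line, are averaged on an array, and this average plus 2 SD is subtracted from every gene of that array. A gene with a mean distance above 0 is called present. By this rule 52.7% of the 17217 genes and 13.7% of 350 non-chemosensory G protein-coupled receptor (GPCR) genes were present. Of the 3 genes here only GPR50 was. The paper itself counted more GPCR genes in HEK293 cells, from its own gene list, and the reason for this gap was not tested. Because each probe binds its target with its own affinity, a distance ranks signals and not numbers of transcripts.

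The sequences in front of the 3 genes are shown because these genes are close relatives with very different message. Each is the stretch of 250 bases that ends just before the annotated start of the RefSeq gene, taken from GRCh38.p14 and printed 5′ to 3′ on the strand of the gene. They lie at chrX:151176334-151176583 on the plus strand for GPR50, at chr4:186555568-186555817 on the minus strand for MTNR1A and at chr11:92969401-92969650 on the plus strand for MTNR1B. Capitals mark the motifs CCAAT and GGGCGG on either strand.
GPR50: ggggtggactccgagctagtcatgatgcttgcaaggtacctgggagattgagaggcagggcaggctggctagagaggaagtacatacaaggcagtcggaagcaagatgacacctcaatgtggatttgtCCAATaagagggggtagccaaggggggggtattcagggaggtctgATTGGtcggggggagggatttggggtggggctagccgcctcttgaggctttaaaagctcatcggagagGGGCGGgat
MTNR1A: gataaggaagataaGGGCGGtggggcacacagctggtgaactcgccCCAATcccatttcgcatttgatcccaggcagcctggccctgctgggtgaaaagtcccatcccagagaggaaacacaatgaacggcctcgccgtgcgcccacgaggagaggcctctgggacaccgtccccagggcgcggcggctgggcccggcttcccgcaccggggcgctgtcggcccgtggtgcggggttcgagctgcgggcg
MTNR1B: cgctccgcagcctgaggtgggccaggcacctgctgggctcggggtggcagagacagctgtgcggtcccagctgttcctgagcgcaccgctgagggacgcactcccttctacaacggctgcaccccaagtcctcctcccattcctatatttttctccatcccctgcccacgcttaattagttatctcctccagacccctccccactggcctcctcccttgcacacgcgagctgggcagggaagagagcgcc
No array value bears on these letters directly, and the matches are descriptions only.

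The stretch before GPR50 was the poorest of the 3 in CpG dinucleotides, the sites of DNA methylation. It held 6, against 22 before MTNR1A and 12 before MTNR1B, and the median over 35116 human promoters of this length was 11. Its G and C content was 56.8%, and that of MTNR1A and MTNR1B was 67.6% and 63.6%. CCAAT, the box bound by the factor NF-Y, stood at bases -122 to -118 before GPR50 and, as its complement, at -77 to -73. It stood once before MTNR1A, at -204 to -200, and was not found before MTNR1B. Of all promoters 32.0% held it. GGGCGG, a GC box, stood at -9 to -4 before GPR50 and at -236 to -231 before MTNR1A, and 42.6% of promoters held it. The sequence TATAAA, found in 10.7% of promoters, was in none of the 3 windows. The motifs do not overlap one another in these windows.

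Gene levels were closely correlated between the 4 arrays, but the arrays differed in how high their controls lay. Pearson's r of gene levels between pairs of arrays ran from 0.949 to 0.977, though genes do not count as independent points. For replicates 1 to 4 the baselines were 9.47, 9.94, 10.69 and 10.32 log2 units. The dim end of the scale lay higher on replicates 3 and 4, where the lower quartile of all probe values was 7.37, than on replicates 1 and 2, where it was 6.77. The line was checked against markers reported for it. Of 6 such genes 4 were called above the baseline by limma, a call made for 45.8% of all named genes, among them the intermediate filament genes VIM, KRT8 and NEFL, and the kidney factor gene PAX2 was called below. With the control genes SPATA5 and SPATA13 left out all 6, PAX2 included, had a mean distance above 0. The neurofilament gene NEFM divided the arrays, at 4.10 and 2.40 on replicates 1 and 3 and at -1.62 and -2.24 on replicates 2 and 4 (mean 0.66, limma adjusted p = 0.0681). It was called above without replicate 2, at 1.42, or without replicate 4, at 1.63. Markers of blood, endothelial, liver and heart cells (PTPRC, PECAM1, ALB, HBB and MYH6) were called below the baseline in 5 of 5 cases, as were 41.1% of all named genes, and none of the 5 rose above 0 with the control genes SPATA5 and SPATA13 left out.

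GPR50 was the GPCR gene with the highest signal on each of the 4 arrays. On replicates 1 to 4 its log2 levels were 14.53, 15.84, 15.02 and 15.28. These are distances of 5.06, 5.90, 4.33 and 4.96 above the baselines of those arrays. The lowest of them is far from 0, and no array of GPR50 overlapped any array of MTNR1A or MTNR1B. Distances above 0 on all 4 arrays were found for 45% of named genes and for 9.14% of GPCR genes. Against the whole genome of the array GPR50 ranked 208th of 17217 genes by mean distance. Only 12 genes were higher on replicate 2, whereas 143 were on replicate 4, 247 on replicate 3 and 848 on replicate 1.

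The level of GPR50 was higher on replicates 2 and 4 than on replicates 1 and 3, with means of 15.56 and 14.77 log2 units. NEFM was high on the opposite arrays, and its part in this was not tested. After subtraction of the baseline the order was less clear with all 3 probes, since the distance on replicate 1 was 5.06 and that on replicate 4 was 4.96. Probe 3 of GPR50 read only 10.94 on replicate 4. With probe 3 left out the distances were 4.84, 5.95, 4.32 and 5.52 on replicates 1 to 4. Replicates 2 and 4 then stood above replicates 1 and 3 after subtraction as well. With probe 1 or probe 2 left out instead, replicate 4, at 4.48 and 4.64, stayed below replicate 1, at 5.04 and 5.26. GPR50 also came close to the top of the scale, as the highest probe value on any array was 15.99. On replicate 2 its first probe read 15.96, with 51 of 71998 probes higher, and on replicate 4 it read 15.92, with 35 higher. No flag for saturated spots was used here, so a difference between arrays at this height can be larger than the values show.

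**Figure D1:**
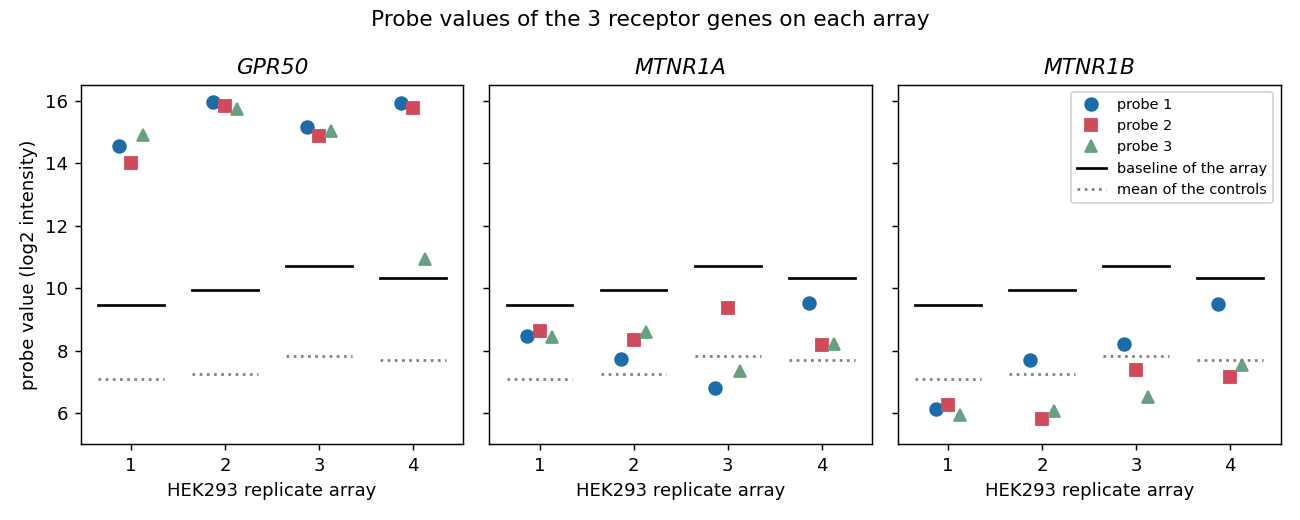
Values of the 3 probes of GPR50, MTNR1A and MTNR1B (log2 intensity, vertical axis) on HEK293 replicates 1 to 4 (horizontal axis), each symbol being 1 probe. The black line is the baseline of the array and the dotted line the mean of its control genes. The probes of GPR50 lie above every baseline, with the third probe on replicate 4 at 10.94, and those of MTNR1A and MTNR1B lie below.

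The 3 probes of GPR50, taken in the order of the number that ends their names, told the same story on 3 of the 4 arrays. The plot of probe values by array shows them within 0.87 log2 units of each other on replicate 1, within 0.23 on replicate 2 and within 0.29 on replicate 3. On replicate 4 the first and second probe read 15.92 and 15.75 and the third read 10.94. That same probe had been at 14.88, 15.73 and 15.02 on replicates 1 to 3. It thus lay 4.89 below the mean of its companions on replicate 4 alone, and still 0.62 above that array's baseline. Of 21761 probes that stayed within 1 log2 unit of their companions on replicates 1 to 3, 11 fell as far on replicate 4, the GPR50 probe among them. The 21761 include dim probes, which had no room for such a fall, as the lowest value on replicate 4 was 5.49. How often a probe as bright as this one fell so far was not counted. With the third probe left out GPR50 stood at 5.16 ± 0.72 (SD, n = 4) and its distance on replicate 4 rose from 4.96 to 5.52.

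MTNR1A, the gene for MT1, gave a weak signal whose gene level was even over the arrays, though its single probes varied more. Over replicates 1 to 4 its log2 levels were 8.50, 8.26, 8.29 and 8.78, a mean of 8.46 ± 0.24 (SD, n = 4). The distances were -0.97, -1.68, -2.40 and -1.54, so the gene was below the baseline on each array. The same held on all 4 arrays for 39.8% of named genes and 78.3% of GPCR genes. The spread of the distances, 0.59, was larger than that of the levels because the baseline itself moved by 0.52 (SD) between arrays. None of the 12 probe values reached its array's baseline, and the nearest was the first probe on replicate 4, at 9.53. The probes lay within 0.19 of each other on replicate 1 but 2.58 apart on replicate 3. With the second probe left out MTNR1A stood at -1.91 ± 1.16 (SD, n = 4), and at -3.59 on replicate 3.

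Where MTNR1A fell depended on which silent genes set the zero. The control genes SPATA13 and SPATA5 (now AFG2A) read well above the other 8 and lifted the baseline, and MTNR1A lay above those 8 on each of the 4 arrays. With SPATA5 and SPATA13 left out, the baseline fell from 10.10 to 7.78 and MTNR1A turned to 0.68 ± 0.38 above it, with distances of 1.07, 0.59, 0.20 and 0.87. With 364 olfactory receptor genes as controls it stood at 0.44 ± 0.35 and was above 0 on 3 of 4 arrays, at -0.04 on replicate 3. By mean level MTNR1A exceeded 358 of those 364 olfactory receptor genes. On single arrays it exceeded 351 to 359 of them. Other GPCR genes crossed as well under these baselines, and the 48 counted as present became 133 and 113.

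MTNR1B, the gene for MT2, gave the weakest and least even signal of the 3. The log2 levels were 6.11, 6.78, 7.53 and 8.44 on replicates 1 to 4. The distances were -3.36, -3.15, -3.16 and -1.88, so replicate 4 stood apart from the other arrays. The first probe carried much of this. It read 6.13, 7.70, 8.21 and 9.48 on replicates 1 to 4, while the other 2 probes stayed between 5.81 and 7.54. Without the first probe MTNR1B stood at -3.50 ± 0.44 (SD, n = 4). Its position among the 364 olfactory receptor genes moved as well, with 80, 293, 281 and 357 of them lower on replicates 1 to 4. Unlike MTNR1A, its mean distance stayed below 0 with SPATA5 and SPATA13 left out, at -0.56 ± 0.79, and with olfactory receptor controls, at -0.81 ± 0.81 (SD, n = 4 for each). On replicate 4 alone it was above these lower baselines, by 0.52 and 0.29.

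On each of the 4 arrays GPR50 was the highest of the 3 genes, followed by MTNR1A and then MTNR1B. The distances of GPR50 did not overlap those of the others. Those of MTNR1A ran from -2.40 to -0.97 and those of MTNR1B from -3.36 to -1.88, so these neighbours in the order overlapped.

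**Figure D2:**
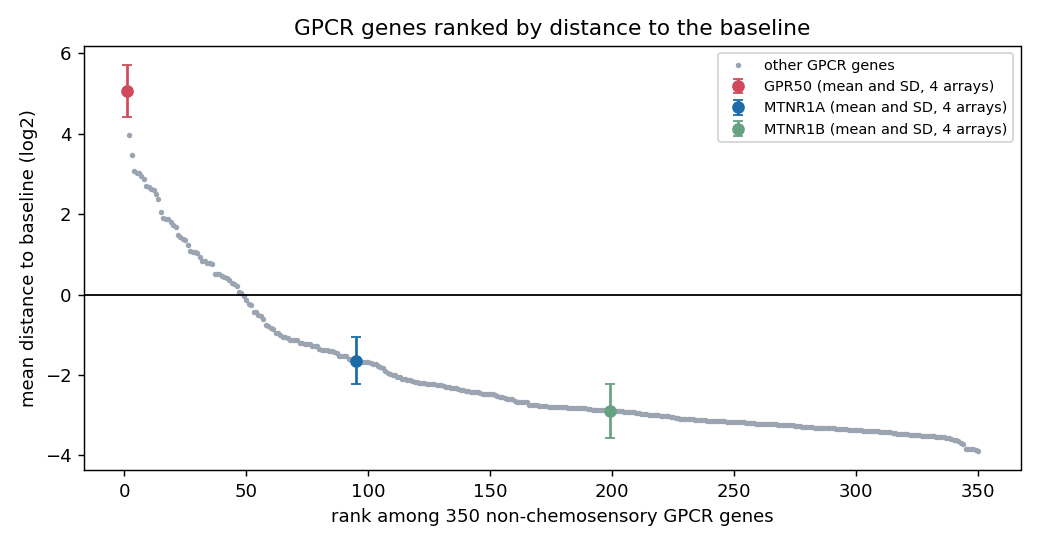
Mean distance to the baseline over 4 arrays (log2, vertical axis) of 350 non-chemosensory GPCR genes ordered by rank (horizontal axis), with the 3 receptor genes in colour and their SD as bars. GPR50 is first, at 5.06, MTNR1A is 95th and MTNR1B is 199th. The line at 0 is the baseline, which 48 genes exceed.

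Among 350 GPCR genes GPR50 ranked 1st, MTNR1A 95th and MTNR1B 199th by mean distance, as the plot of ranked GPCR genes shows. The genes whose distances lay nearest to those of each receptor over the 4 arrays were picked by the root mean square of the difference. For GPR50 they were GPR107, a membrane protein of the secretory pathway counted here with the orphans, at 1.33 log2 units away, the orphan receptor GPR37 at 1.64 and the adhesion receptor ADGRA3 at 2.04. Their own distances were 3.97 ± 0.71, 3.47 ± 0.54 and 3.07 ± 0.49 (SD, n = 4 for each). No GPCR gene came nearer to GPR50 than 1.33. MTNR1A had much closer company, in the melanocortin receptor gene MC1R at 0.19 log2 units away, the bradykinin receptor gene BDKRB1 at 0.24 and the adenosine receptor gene ADORA1 at 0.35. These stood at -1.62 ± 0.69, -1.53 ± 0.45 and -1.84 ± 0.63 (SD, n = 4 for each). They too rose above 0, to 0.70, 0.79 and 0.49, with SPATA5 and SPATA13 left out. MTNR1B was nearest to the lipid-sensing receptor gene GPR55 at 0.18, to the orphan GPR151 at 0.31 and to the bile acid receptor gene GPBAR1 at 0.33, which stood at -2.90 ± 0.49, -2.78 ± 0.41 and -2.82 ± 0.49 (SD, n = 4 for each). All of these differences come from 4 arrays that share their baselines.

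The nearest named and measured genes on either side of each receptor were also looked at. GPR50 had 3 of 4 such neighbours above the baseline on all 4 arrays. These were HMGB3, a chromatin protein gene, at 4.31 ± 0.54, CD99L2, for a cell surface protein, at 2.69 ± 0.64, and VMA21, for an assembly factor of the proton pump, at 2.61 ± 0.75 (SD, n = 4 for each). The fourth, PASD1, a gene of the testis, was at -2.94 ± 0.35 (SD, n = 4). MTNR1A lay between the cadherin gene FAT1, at 4.97 ± 0.59, and the clotting factor gene F11, at -3.63 ± 0.34 (SD, n = 4 for each). The next genes on either side, KLKB1 for plasma prekallikrein and ZFP42 for a zinc finger protein of stem cells, were at -3.45 ± 0.38 and -3.47 ± 0.41 (SD, n = 4 for each). Of the 4 neighbours of MTNR1B, CHORDC1, for a partner of the chaperone Hsp90, was at 3.12 ± 0.86 and the amino acid transporter gene SLC36A4 at 1.31 ± 0.97, both above the baseline on all 4 arrays. The peptidase gene NAALAD2 was at -1.87 ± 1.13 and DEUP1, for a protein of multiciliated cells, at -3.39 ± 0.53 (SD, n = 4 for each). NAALAD2 turned to 0.46 with SPATA5 and SPATA13 left out, and SLC36A4 to -0.0063 with a baseline of 3 SD. Each receptor gene thus had genes on both sides of the baseline among its neighbours.

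The rest of the melatonin pathway was then set against the baseline, in 6 lists with 65 genes, of which 62 were measured. For these genes the distances were tested against 0 with limma, two-sided, with Benjamini-Hochberg adjustment over all 17217 genes. Of the 62 genes 31 were called above the baseline, 22 below and 9 neither way, where 45.8% of all genes were called above and 41.1% below. The median distance was 0.81, against 0.26 over all genes. A call below means only that a gene read lower than the mean plus 2 SD of the seminal genes, and with SPATA5 and SPATA13 left out of them 11 of the 62 were called below.

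None of the measured genes for enzymes that make melatonin reached the baseline. All 4 measured genes of synthesis were called below the baseline, as were 41.1% of all named genes. Their median was -3.17, and they stayed below 0 with SPATA5 and SPATA13 left out. Tryptophan hydroxylase, which starts the pathway from tryptophan, stood at -2.92 ± 0.86 for TPH1 and -3.34 ± 0.41 for TPH2 (SD, n = 4 for each). The decarboxylase gene DDC was at -3.65 ± 0.32 and AANAT, for the enzyme that sets the nightly rhythm, at -2.99 ± 0.27 (SD, n = 4 for each). ASMT, for the last step, was not matched. Of the 8 measured genes that clear or break down melatonin none was called above and 5 were called below. The cytochrome gene CYP1A2, whose enzyme does most of this in the liver, was at -1.52 ± 1.05, and CYP1B1 was nearest to a call above, at 0.53 ± 0.77 (SD, n = 4 for each; limma adjusted p = 0.144). CYP1A2 turned to 0.81 with SPATA5 and SPATA13 left out. In that setting 5 of the 8 genes had a mean distance above 0, against 2 as reported.

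Other proteins that bind melatonin or were once proposed as its receptors gave a mixed picture, with 6 of 9 genes called above and 2 below, at a median of 3.17. The shares over all named genes were 45.8% above and 41.1% below. NQO2, the quinone reductase that accounts for the melatonin binding site MT3, stood at 3.17 ± 0.61 (SD, n = 4) and was above the baseline on all 4 arrays. Calmodulin and calreticulin are abundant calcium-binding proteins of all cells, and CALM3 stood at 5.37 ± 0.68 and CALR at 5.48 ± 0.62 (SD, n = 4 for each). The nuclear receptor gene RORA stood at 1.90 ± 0.39 (SD, n = 4), and with a baseline of 3 SD it lost its call, at 0.58.

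Of the 19 genes for G proteins and adenylyl cyclases 11 were called above the baseline and 6 below, with a median of 1.14. For all named genes these shares were 45.8% and 41.1%. Among the inhibitory alpha subunits, through which the melatonin receptors act, GNAI2 was at 3.77 ± 0.54, GNAI3 at 1.46 ± 0.56 and GNAZ at 2.05 ± 0.64 (SD, n = 4 for each). GNAI1 was at the baseline, with distances of 0.80, 0.63, -1.18 and -0.34 (limma adjusted p = 0.953). The neuronal subunit gene GNAO1 was called below, at -1.83 ± 0.45 (SD, n = 4), and turned to 0.50 with SPATA5 and SPATA13 left out. The subunits that raise calcium stood at 2.45 ± 0.76 for GNAQ and 3.08 ± 0.60 for GNA11, and the beta subunit gene GNB1 at 4.14 ± 0.69 (SD, n = 4 for each). Adenylyl cyclases make the cyclic AMP that these receptors lower, and of these ADCY6 stood at 2.29 ± 0.73, ADCY9 at 2.04 ± 0.64 and ADCY8 at -3.47 ± 0.28 (SD, n = 4 for each). With a baseline of 3 SD the calls of GNAI3, GNAZ and ADCY9 were lost, at 0.14, 0.73 and 0.72.

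Of the 9 genes for regulators and further effectors 3 were called above and 5 below, with a median of -1.46. For all named genes these shares were 45.8% and 41.1%. Beta-arrestin 2, which ends G protein signalling at an active receptor, had high message, with ARRB2 at 4.79 ± 0.64 (SD, n = 4). ARRB1 was at 0.68 ± 0.60 (SD, n = 4; limma adjusted p = 0.0604), and passed the threshold without replicate 1, at 0.73 (limma adjusted p = 0.0428), or without replicate 3, at 0.94 (limma adjusted p = 0.0154), while over all alternatives its adjusted p ran from 3.73e-13 to 0.766. The receptor kinase gene GRK2, measured by 1 accession, was called below, at -3.50 ± 0.68, and RGS10, whose protein speeds the turn-off of inhibitory G proteins, was at 1.31 ± 0.75 (SD, n = 4 for each). RGS10 lost its call when its probes were averaged on the log2 scale, at 0.44 (limma adjusted p = 0.244, and 1.06e-15 to 0.980 over all alternatives). The potassium channel genes KCNJ3 and KCNJ6, which neurons open through these G proteins, were at -2.95 ± 0.49 and -3.29 ± 0.40, and the cyclic AMP target CREB1 was at 1.66 ± 0.71 (SD, n = 4 for each). CREB1 lost its call with a baseline of 3 SD, at 0.35.

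**Figure D3:**
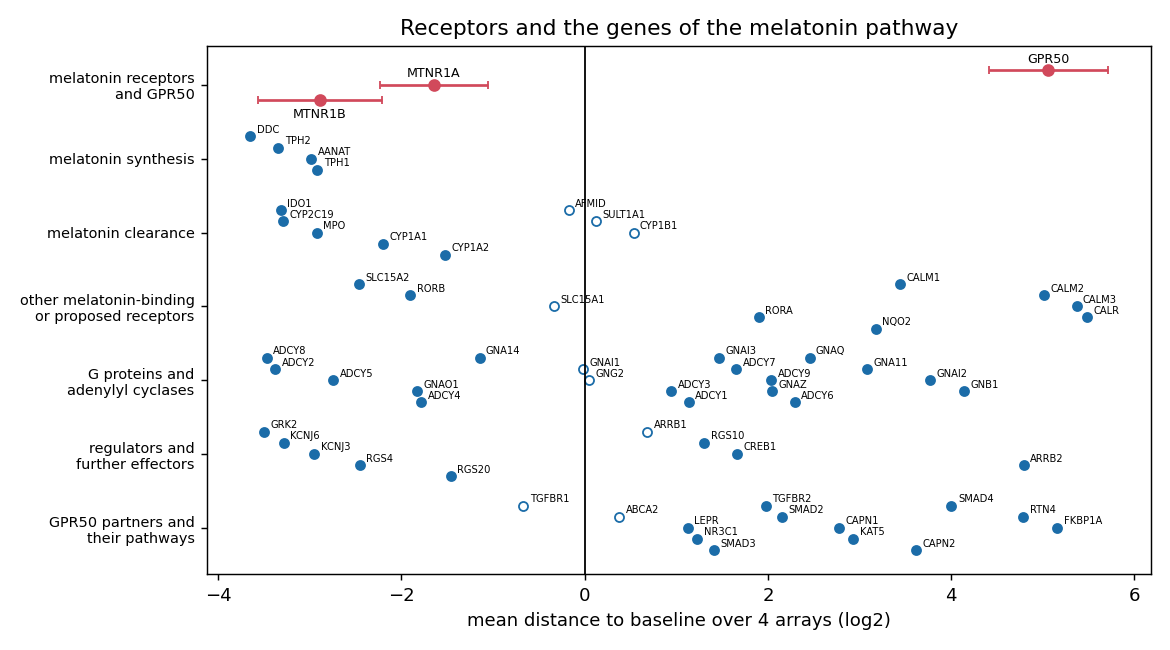
Mean distance to the baseline over 4 arrays (log2, horizontal axis) of the 3 receptor genes (red, bars are SD) and of 62 genes in 6 lists (blue). Filled points were called above or below 0 by limma and open points were not. Genes of melatonin synthesis lie left of the baseline, as do MTNR1A and MTNR1B. Of 13 genes for partners of GPR50 and for the pathways these belong to, 11 were called to the right of it. Of all named genes 45.8% were called above and 41.1% below.

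Genes for proteins that GPR50 is known to meet, and for the pathways these belong to, were present for the most part. Of 13 genes 11 were called above the baseline and none below, and the other 2 were not called. Among all named genes 45.8% were called above and 41.1% below. The median was 2.16. RTN4, for the neurite growth inhibitor Nogo, stood at 4.79 ± 0.76 and KAT5, for the acetyltransferase TIP60, at 2.93 ± 0.48 (SD, n = 4 for each). The glucocorticoid receptor gene NR3C1, whose protein TIP60 assists, stood at 1.23 ± 0.83 (SD, n = 4) and lost its call when its probes were averaged on the log2 scale, at 0.69 (limma adjusted p = 0.0664, and 3.00e-15 to 0.835 over all alternatives). The TGF-beta receptor gene TGFBR1, whose product GPR50 can hold active, was not called, at -0.67 ± 1.17 (SD, n = 4; limma adjusted p = 0.0649). Its distances were 0.93, -1.56, -0.51 and -1.53 on replicates 1 to 4, so that only replicate 1 was above the baseline. Without replicate 1 it was called below, at -1.20 (limma adjusted p = 0.00114), and over all alternatives its adjusted p ran from 3.54e-07 to 0.771. Its partner chain TGFBR2 stood at 1.98 ± 0.63, the inhibitor gene FKBP1A at 5.16 ± 0.68 and the signal carrier gene SMAD4 at 4.00 ± 0.67 (SD, n = 4 for each). With a baseline of 3 SD the call of TGFBR2 was lost, at 0.66. CAPN2, for a calcium-dependent protease, stood at 3.62 ± 0.55 (SD, n = 4).

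Markers of the cells from which GPR50 is otherwise known, and of the cells that make melatonin, were also set against the baseline. Of 6 markers of tanycytes and of the pars tuberalis of the pituitary 5 were called below the baseline, RAX, DIO2, TSHB, CGA and CHGA, and PITX1 was called above. CGA was above the baseline on 1 array. Of 5 measured pinealocyte markers all were called below, though CRX was above the baseline on 2 arrays. Over all genes 41.1% were called below. With SPATA5 and SPATA13 left out 3 of the 6 markers of tanycytes and pars tuberalis and 1 of the 5 of pinealocytes had a mean distance above 0.

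**Figure D4:**
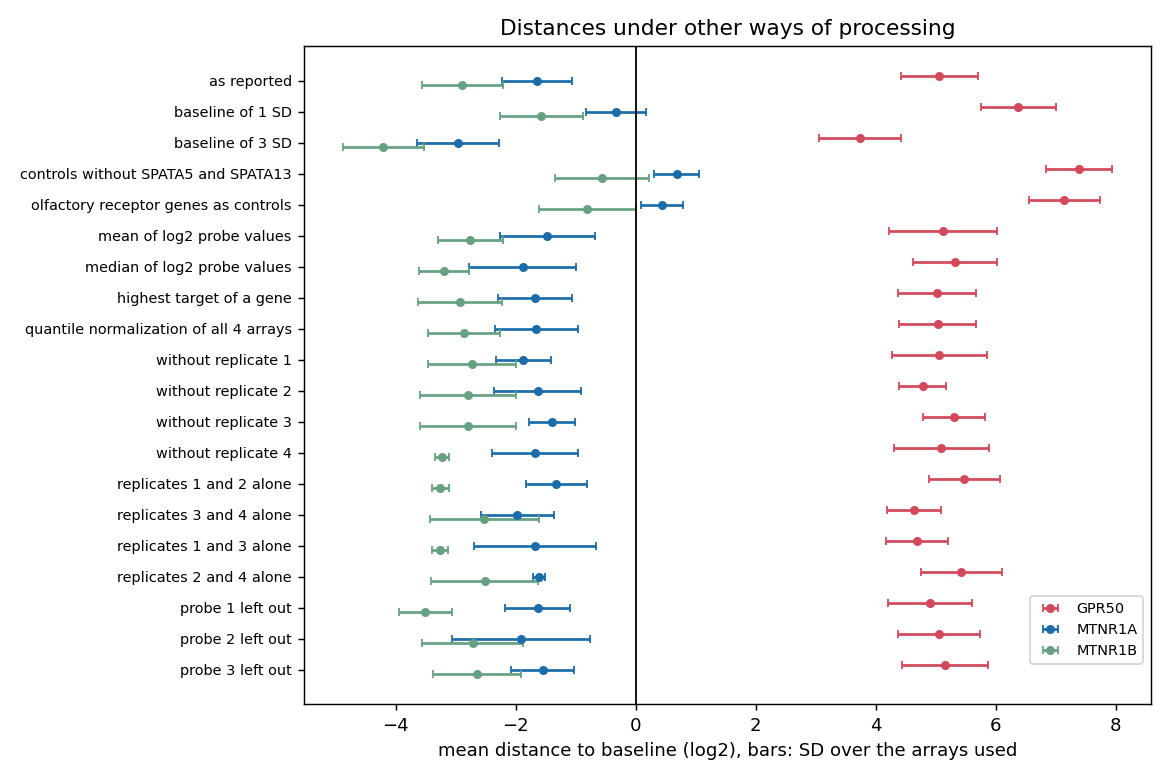
Mean distance of GPR50, MTNR1A and MTNR1B to the baseline (log2, horizontal axis) as reported and under each alternative way of processing (vertical axis), with bars for the SD over the arrays used. GPR50 stays between 3.74 and 7.39. MTNR1A crosses 0 with SPATA5 and SPATA13 left out (0.68) and with olfactory receptor controls (0.44), and MTNR1B stays below 0.

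The distance of GPR50 was above 0 under each of the 19 alternatives run for it, as the plot of the alternatives shows. Its lowest value, 3.74 ± 0.68, came with a baseline of 3 SD, and its highest, 7.39 ± 0.55, with SPATA5 and SPATA13 left out (SD, n = 4 for each). On the pairs of arrays that share a distribution of values it stood at 5.48 for replicates 1 and 2 and at 4.64 for replicates 3 and 4. The distances of MTNR1A on these pairs were -1.32 and -1.97 and those of MTNR1B -3.26 and -2.52. Placing all 4 arrays on 1 common distribution left GPR50 at 5.03, MTNR1A at -1.66 and MTNR1B at -2.86.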

How the data were processed

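Total RNA of 4 HEK293 cultures was copied from an oligo(dT) primer, labelled with Cy3 and hybridised in 1 colour to NimbleGen arrays of long oligonucleotide probes designed on HG18. The authors deposited 1 log2 intensity per probe and array, extracted with NimbleScan. The submitters' processing notes name RMA, with no settings. The sorted values of replicates 1 and 2 were nearly identical, and so were those of 3 and 4, as if each pair had been quantile normalized apart from the other. Raw intensities were not used here. The number of arrays limits the precision. The p-values as reported set a mean distance against a spread between these 4 cultures that was pooled over all genes. A gene's own spread therefore does not set its p-value.

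Probes were matched by unversioned accession to RefSeq genes of GRCh38.p14, which named 19125 of 24000 targets and 17217 genes. A target was log2 of the mean linear value of its probes and a gene the mean of its targets. The baseline was the mean plus 2 SD of 10 matched seminal genes of the 11 in the study's methods (PYY2 was not matched). Distances were tested with limma 3.58.1 in R 4.3.3, with Benjamini-Hochberg adjustment at 0.05. With infinite prior degrees of freedom all genes shared a standard error of 0.351, and the baseline ties their tests together. Other baselines, probe summaries, normalization, fits and subsets of arrays or probes were tried as alternatives. The GPCR list held 368 genes, of which 350 matched.

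The receptor genes and the lists were chosen with earlier results of these data known. Genes named in the text were the receptors, controls on which the baseline turned, genes from the lists, and for each receptor the 3 nearest GPCR genes and the 2 measured neighbours on each side. A further gene of the lists is not reported here.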

Additional observations from a re-analysis of the deposited data

Results flagged for a closer look

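Of 61 genes, 4 had an array whose distance stood apart from the others by more than the critical value of Dixon's test for 4 values (the gap to the nearest array over the whole range), and chance marks about 1 gene in 20. MTNR1B was at -1.88 on replicate 4 and between -3.36 and -3.15 on the others, a ratio of 0.862. GNAI2 was at 4.56 on replicate 1 and between 3.40 and 3.60 on the others, a ratio of 0.830. CD99L2 was at 3.66 on replicate 1 and between 2.36 and 2.38 on the others, a ratio of 0.986. DEUP1 was at -2.60 on replicate 1 and between -3.74 and -3.57 on the others, a ratio of 0.852. In the log2 levels before the baseline was subtracted the largest ratios were 0.391 for MTNR1B, 0.550 for GNAI2, 0.477 for CD99L2 and 0.320 for DEUP1, none above the critical value. Replicate 1 had the lowest baseline.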

How the results depend on the processing

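The height of the baseline moved the receptors most. With 1 SD GPR50, MTNR1A and MTNR1B stood at 6.38, -0.33 and -1.57, with 3 SD at 3.74, -2.96 and -4.21, without SPATA5 and SPATA13 at 7.39, 0.68 and -0.56, and with olfactory receptor controls at 7.14, 0.44 and -0.81. In the same order 79, 25, 133 and 113 GPCR genes were present, against 48. Pathway genes called above numbered 18 with 3 SD, against 31. Those called below numbered 11 without SPATA5 and SPATA13, 13 with olfactory receptor controls and 9 when only genes brighter than the mean of the controls were tested, since dim genes were then left out, against 22. Leaving out 1 replicate gave 4.78 to 5.30 for GPR50, -1.87 to -1.39 for MTNR1A, -3.22 to -2.73 for MTNR1B, 8715 to 9343 genes and 45 to 51 GPCR genes present, and 30 to 32 and 22 to 23 pathway genes called above and below. The other 107 values of these results stayed within 1 SD or, for counts, 1.5 times of those reported.

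Among the other named genes 1005 values kept their direction and side of the threshold, 23 gained and 24 lost a call, and 34 changed sign. Without SPATA5 and SPATA13 these were CYP1A2 (0.81), GNAI1 (2.30), GNAO1 (0.50), TGFBR1 (1.66), MC1R (0.70), BDKRB1 (0.79), ADORA1 (0.49) and NAALAD2 (0.46), and with olfactory receptor controls the same genes at 0.56, 2.06, 0.25, 1.41, 0.46, 0.55, 0.25 and 0.21. With 1 SD GNAI1 stood at 1.29 and TGFBR1 at 0.65. With 3 SD CYP1B1 stood at -0.78, ARRB1 at -0.64, RGS10 at -0.011, NR3C1 at -0.088, SLC36A4 at -0.0063 and NEFM at -0.66. GNAI1 stood at 0.22 with log2 means of probes, 0.064 with their medians, -0.30 to 0.36 with 1 replicate left out (0.36 without replicate 3 and 0.083 without replicate 4), 0.72 on replicates 1 and 2 and 0.15 on replicates 2 and 4. On replicates 3 and 4 CYP1B1 stood at -0.12, on replicates 1 and 3 TGFBR1 at 0.21, and NEFM at -0.49 to 1.63 with 1 replicate left out (-0.49 without replicate 1) and at -1.93 on replicates 2 and 4. Apart from the shifts that the baselines themselves make, the cause was not tested. No paired analysis was possible because the series holds 1 group. Depth of signal limits MTNR1A and MTNR1B, which lay below the median probe of each array, 9.39 to 9.40.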
